A study of Mus musculus with 45 samples.

Results

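The 8 genes described here encode the muscle myosin heavy chains of the mouse: Myh3, Myh8, Myh1, Myh2, Myh4, Myh7, Myh7b and Myh6. They were chosen by name, as 8 of 35675 annotated genes with a transcript in the deposited data, and all 8 passed the filter on low counts. Poly(A) RNA was sequenced in 45 bulk libraries, 3 in each of 15 groups. Every group carried the same labelled background, a Pax7-nGFP reporter (nuclear green fluorescent protein driven by Pax7, a gene of muscle progenitors) on mixed C57BL6 and DBA2 stock. The MEF group held untreated mouse embryonic fibroblasts. In the MyoD groups, fibroblasts with an inducible MyoD gene, the transcription factor that can turn fibroblasts into muscle cells, received doxycycline (Dox) alone and were collected on days 2, 4, 6, 8 and 10. In the F/R/C groups they received Dox together with the small molecules abbreviated F/R/C and were collected on the same days. Bulk induced myogenic progenitor cells (iMPC) were established clones that had had 13 days of Dox with F/R/C and then no longer depended on Dox, and sorted iMPC were selected by flow cytometry for Pax7-nGFP. Bulk myoblasts and Pax7-positive sorted myoblasts, both from skeletal muscle, were the reference. The labels call the MyoD cultures myotubes and the F/R/C cultures a mixture of muscle fibres and progenitors, so a bulk level is an average over cell types. In such averages, fewer cells of a type and less RNA per cell cannot be told apart.

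Myosin heavy chain is the motor of the thick filament: its head hydrolyses ATP and pulls on actin, and its rod assembles into the filament. Each gene gives a motor of its own speed. Myh3 is the embryonic and Myh8 the perinatal chain, both made in developing and regenerating muscle. Myh2, Myh1 and Myh4 are the adult fast chains of type 2A, 2X and 2B fibres. Myh7 is the slow chain, shared by type 1 fibres and the heart, Myh6 is the alpha chain of the heart, and Myh7b is a slow-related chain that also carries a muscle microRNA in an intron.

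Library totals ran from 15.6 to 36.3 (median 22.1) in units of 1e6 reads. A pair of libraries stood apart from their groups in these genes. MEF replicate 1 held 1120 Myh3 reads (16.2 TPM, a level scaled by transcript length and by the library total) where replicates 2 and 3 held 0, and its 7 markers of differentiated muscle summed to 89.2 CPM (counts scaled by the library total) against 50.9 and 72.8. Bulk myoblast replicate 3 had 168 TPM of all 8 chains together against 6768 and 5174 in replicates 1 and 2, and its muscle markers summed to 556 CPM against 13333 and 6849. Test results that rest on either library are also given without both of them, and levels and shares of these groups by library. Both were picked after seeing their values in these genes, so calls gained without them are no independent support. Muscle markers summed to 4576 CPM or more in every induced library. Thy1, a fibroblast marker, was at 2706 to 3235 TPM in MEF. Pax7, which defines the sorted cells, was at 63.6 to 86.3 TPM in sorted iMPC and 73.4 to 208 TPM in sorted myoblasts, and at or under 0.0537 TPM in MEF.

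The 5 chains with developmental or fast roles lie side by side on the forward strand of chromosome 11 in the build GRCm38 (GENCODE M21): Myh3 at chr11:67078300-67102291, Myh2 at chr11:67171027-67197517, Myh1 at chr11:67200052-67224575, Myh4 at chr11:67238029-67260446 and Myh8 at chr11:67277124-67308634. Myh6 (chr14:54941921-54966927) and Myh7 (chr14:54970684-54994626) are neighbours on the reverse strand of chromosome 14, and Myh7b (chr2:155611212-155634307) stands alone on chromosome 2. Their coding sequences are close copies. Myh1 is identical to Myh2 at 90.9% of aligned coding bases, to Myh4 at 90.1%, to Myh8 at 89.2% and to Myh3 at 80.2%, and Myh6 is identical to Myh7 at 91.7%. Myh7b is identical to each of the others at 68.8% to 72%. The longest stretch that Myh1 shares with Myh2 shows what the counting of short reads faced. It runs over 268 coding bases of exons 23 and 24 of Myh1 (chr11:67213219-67213597, forward strand, coding bases 2711 to 2978), in the rod, and reads of 100 bases inside it fit both genes. The same 268 letters, which are given without capitals because no base differs, are:

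Myh1 and Myh2: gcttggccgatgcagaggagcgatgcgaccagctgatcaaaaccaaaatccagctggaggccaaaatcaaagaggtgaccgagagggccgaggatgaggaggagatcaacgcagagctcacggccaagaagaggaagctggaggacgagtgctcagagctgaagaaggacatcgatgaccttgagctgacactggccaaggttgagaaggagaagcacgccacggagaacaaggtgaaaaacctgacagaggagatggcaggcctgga

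Shared stretches depend on the length considered. Of all 100-base windows of each representative transcript, 9.69% of Myh1, 9.28% of Myh2, 3.92% of Myh4 and 5.17% of Myh8 also occurred in another member, as did 11.6% of Myh6 and 11.4% of Myh7, each only with the other. No 100-base window of Myh3 or Myh7b occurred in another member. Of all 31-base windows, 39.9% of Myh1, 38.9% of Myh2, 30.4% of Myh4, 30.9% of Myh8, 33.0% of Myh6 and 32.3% of Myh7 did, beside 9.52% of Myh3 and 0.147% of Myh7b. The deposited counts are estimates, in which reads that fit several transcripts are divided among them. Summed per gene, Myh7b had whole-number counts (within 0.01 reads) in all 45 libraries, and the other 7, Myh3 included, in only 1 to 5 of 45.

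Most 100-base windows of each representative transcript occurred in no other member. The window with the greatest difference between Myh1 and the other 4 cluster genes is shown as an extreme, not as a typical stretch. It covers coding bases 3852 to 3951 of Myh1 in exons 28 and 29. Capitals in Myh1 mark the 9 positions at which it differs from all 4 others, and capitals in the others mark each base that differs from Myh1, 30 in Myh3 and 27 in each of Myh8, Myh2 and Myh4.
Myh1: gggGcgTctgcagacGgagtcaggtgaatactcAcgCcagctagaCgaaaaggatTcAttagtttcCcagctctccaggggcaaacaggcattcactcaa
Myh2: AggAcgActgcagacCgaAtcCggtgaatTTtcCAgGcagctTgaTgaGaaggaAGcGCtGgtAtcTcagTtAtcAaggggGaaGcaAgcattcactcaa
Myh4: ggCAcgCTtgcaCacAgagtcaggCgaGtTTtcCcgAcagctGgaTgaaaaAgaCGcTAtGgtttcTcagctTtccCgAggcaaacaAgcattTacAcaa
Myh8: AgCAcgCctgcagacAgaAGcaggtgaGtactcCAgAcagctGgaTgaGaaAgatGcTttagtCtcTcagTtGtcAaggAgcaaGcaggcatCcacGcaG
Myh3: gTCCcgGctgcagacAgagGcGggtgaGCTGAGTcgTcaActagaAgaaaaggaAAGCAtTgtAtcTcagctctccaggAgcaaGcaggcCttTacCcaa

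The upstream bases of the fast and perinatal genes share a pair of letter runs. They were picked as the runs of at least 9 bases that all 4 genes hold on the same strand. Their presence in these 4 was therefore fixed by the choice, and how often other runs of the same length occur was not examined. Whether either run bears on the levels of these genes was not tested. TTCTAATTATATCC occurred in the promoters of Myh1, Myh2, Myh4 and Myh8 and in no other of 32841 RefSeq mouse promoters (0.0122% of them). Each was searched on both strands of the 250 bases before a start site. TCAAATTAT occurred in the same 4 promoters and in 54 genes in all (0.174% of promoters). Neither run occurred in the promoters of Myh3, Myh6, Myh7 or Myh7b. Both are in capitals in the upstream bases below (RefSeq, GRCm38.p6, forward strand).
Myh1, chr11:67199852-67200051: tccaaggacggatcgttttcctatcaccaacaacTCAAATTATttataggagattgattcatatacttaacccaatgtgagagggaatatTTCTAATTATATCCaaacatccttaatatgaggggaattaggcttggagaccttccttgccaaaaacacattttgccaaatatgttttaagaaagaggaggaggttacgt
Myh2, chr11:67170777-67171026: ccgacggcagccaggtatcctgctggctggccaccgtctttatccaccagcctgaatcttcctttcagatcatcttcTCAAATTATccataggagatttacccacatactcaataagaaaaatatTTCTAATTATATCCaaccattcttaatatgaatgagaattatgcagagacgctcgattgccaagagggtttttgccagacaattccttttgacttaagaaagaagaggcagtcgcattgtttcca
Myh4, chr11:67237562-67237811: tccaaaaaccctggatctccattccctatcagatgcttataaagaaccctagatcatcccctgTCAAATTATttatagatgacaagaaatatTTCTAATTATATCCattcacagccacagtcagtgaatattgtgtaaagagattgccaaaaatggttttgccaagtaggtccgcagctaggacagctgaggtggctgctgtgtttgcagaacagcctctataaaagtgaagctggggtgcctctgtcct
Myh8, chr11:67276874-67277123: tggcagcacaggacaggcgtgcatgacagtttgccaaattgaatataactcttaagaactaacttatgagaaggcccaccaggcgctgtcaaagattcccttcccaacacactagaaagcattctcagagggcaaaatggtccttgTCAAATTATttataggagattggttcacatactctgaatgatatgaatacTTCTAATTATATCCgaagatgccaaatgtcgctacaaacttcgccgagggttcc

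Relative to the RefSeq start, the 14-base run begins at -160 in Myh1, -125 in Myh2, -158 in Myh4 and -54 in Myh8, and the 9-base run stands upstream of it in all 4. The E-box letters CANNTG, the core that MyoD and its relatives bind, were searched on both strands of the 250 upstream bases. They had no match upstream of Myh1 or Myh2, 2 matches upstream of Myh4 and 1 upstream of Myh8 and of Myh3, while 66.2% of all promoters held at least 1. A match or its absence describes only the letters in this window.

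Myosin heavy chain RNA was nearly absent from fibroblasts and abundant within 2 days of MyoD. The 8 genes summed to 6.81 ± 11.6 TPM in MEF (SD, n = 3, most of it in replicate 1), to 1459 ± 250 TPM on day 2 of MyoD alone and to 1963 ± 524 TPM on day 2 with F/R/C. The sum was highest on day 6 of MyoD alone (5826 ± 1647) and on day 4 with F/R/C (6568 ± 1097), and on day 10 it was 3270 ± 2077 TPM in MyoD alone and 3280 ± 754 with F/R/C. Bulk iMPC held 5634 ± 864 TPM and sorted iMPC 166 ± 75.3 TPM. Bulk myoblasts held 4036 ± 3444 TPM, with replicate 3 far below the others, and sorted myoblasts 661 ± 150 TPM.

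**Figure D1:**
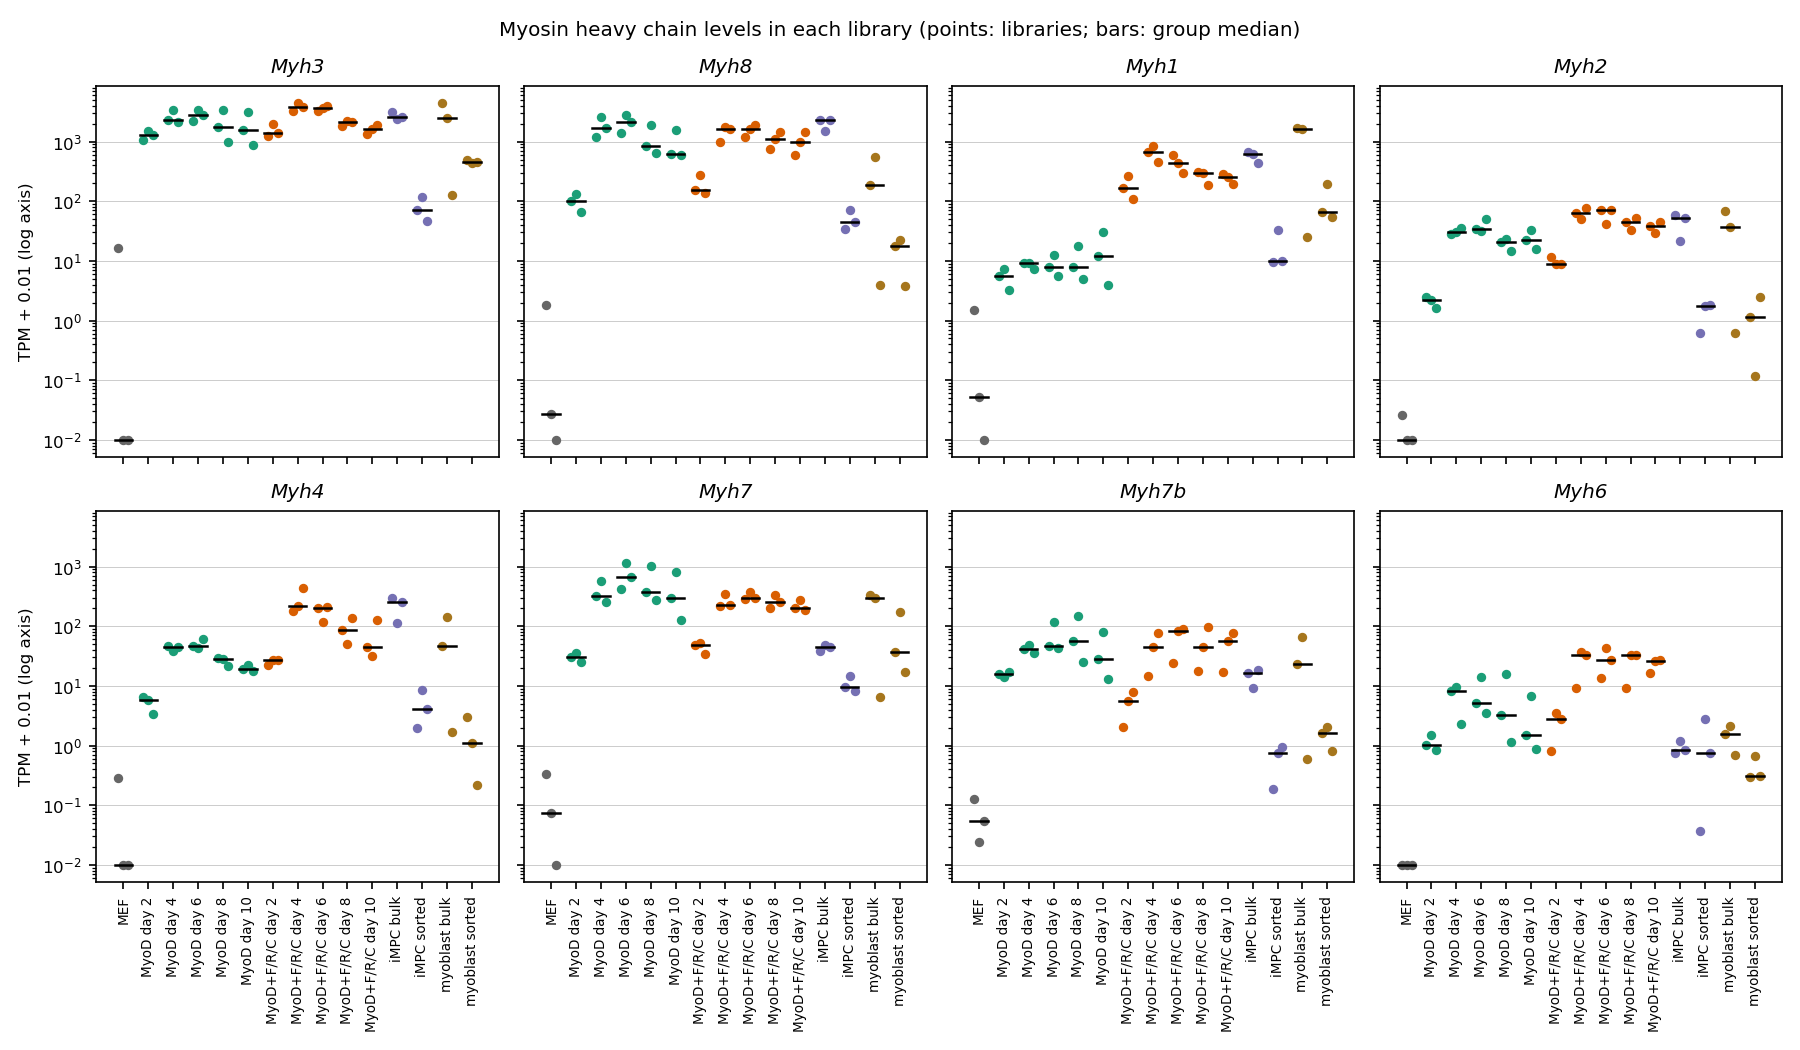
Level of each of the 8 muscle myosin heavy chains (TPM plus 0.01, log axis) in each of 45 libraries, with points for libraries and bars for group medians in 15 groups. Myh3 is at 882 TPM or more in every induced library, Myh1 is between 3.27 and 31 TPM in every MyoD-alone library and between 109 and 835 TPM in every F/R/C library, and MEF replicate 1 and bulk myoblast replicate 3 stand away from their groups.

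Myh3, the embryonic chain, was the most abundant of the 8 by mean TPM in all 15 groups. In MyoD alone it stood at 1069, 1532 and 1297 TPM on day 2 and at 2282, 3362 and 2161 on day 4. It then stood at 2229, 3340 and 2785 on day 6, 1743, 3321 and 981 on day 8, and 1552, 3094 and 882 on day 10. Replicate 2 was the highest of the 3 on all 5 days, and the spread between replicates was wider on days 8 and 10 than before. With F/R/C the values were 1219, 1935 and 1366 on day 2, 3292, 4360 and 3739 on day 4, 3238, 3673 and 3900 on day 6, 1798, 2255 and 2129 on day 8, and 1323, 1626 and 1923 on day 10. The arms overlapped on all 5 days. Bulk iMPC held 3091, 2387 and 2606 TPM, bulk myoblasts 4458, 2466 and 129, sorted myoblasts 494, 435 and 456, and sorted iMPC 72.3, 119 and 47.4. In the order of group means, day 4 with F/R/C was highest (3797 ± 537), and 11 of the 14 pairs of neighbours in the order overlapped. The breaks came below day 2 of MyoD alone, below sorted myoblasts and below sorted iMPC.

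Myh8, the perinatal chain, was low on day 2 and abundant from day 4 on. On day 2 it was at 103, 131 and 66.7 TPM in MyoD alone and at 156, 270 and 138 with F/R/C. By day 4 it stood at 1180, 2575 and 1657 in MyoD alone and at 986, 1748 and 1603 with F/R/C, and on day 6 at 1417, 2801 and 2157 and at 1208, 1630 and 1888. On day 10 the MyoD libraries held 610, 1549 and 595 TPM and the F/R/C libraries 607, 971 and 1459, so the arms overlapped throughout days 4 to 10. On day 2 the arms did not overlap in TPM, but they did in CPM. Between the established cultures, bulk iMPC held 2262, 1520 and 2334 TPM and bulk myoblasts 185, 553 and 3.86, with no overlap. Sorted iMPC (34.2, 72.1 and 44.3) also lay wholly above sorted myoblasts (18.0, 22.2 and 3.74). The highest group mean was day 6 of MyoD alone (2125 ± 693), next to bulk iMPC (2039 ± 451), and 10 of 14 neighbour pairs overlapped.

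Myh1, the type 2X chain, was low in every library of MyoD alone and higher in every library of the F/R/C time course. The MyoD libraries held 5.61, 7.30 and 3.27 TPM on day 2, 9.23, 9.32 and 7.22 on day 4, 7.81, 12.5 and 5.59 on day 6, 7.96, 17.7 and 5.01 on day 8, and 12.2, 31 and 4.01 on day 10. The F/R/C libraries held 168, 264 and 109 on day 2, 678, 835 and 448 on day 4, 589, 436 and 294 on day 6, 313, 301 and 188 on day 8, and 287, 254 and 191 on day 10. The lowest F/R/C library (109) lay above the highest MyoD library of any day (31). Bulk iMPC held 668, 615 and 445 TPM, and bulk myoblasts 1657, 1611 and 25, the group with the highest mean (1098 ± 929). Sorted myoblasts held 65.8, 192 and 54.4 TPM, and sorted iMPC 9.69, 33.5 and 9.96. In the order of means, 12 of 14 neighbour pairs overlapped, and the gap between sorted myoblasts and sorted iMPC was a break, with every MyoD-alone group below it.

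Myh4, the type 2B chain, and Myh2, the type 2A chain, were present in both arms. Myh4 stood at 6.37, 5.90 and 3.39 TPM on day 2 of MyoD alone, 45.9, 39.0 and 44.5 on day 4, and 19.1, 22.7 and 17.8 on day 10. With F/R/C it stood at 22.4, 27.4 and 26.7 on day 2, 177, 218 and 429 on day 4, and 44.1, 32.1 and 129 on day 10. The arms did not overlap on any of these 3 days, nor on day 6 (42.7 to 61.2 against 116 to 212) or day 8 (21.8 to 29.1 against 49.5 to 136). Bulk iMPC, at 296, 115 and 252 TPM, were second to day 4 with F/R/C (274 ± 135) in the order of means, and in that order 12 of 14 neighbours overlapped. Myh2 had the lowest mean of the 3 fast chains on all 5 days with F/R/C and the highest on day 10 of MyoD alone (23.5 ± 8.71). It was at 1.61 to 2.51 TPM on day 2 of MyoD alone and 8.88 to 11.5 with F/R/C, and from day 4 to day 10 at 14.4 to 51.2 in MyoD alone and 28.9 to 77.8 with F/R/C. Bulk iMPC held 59.3, 21.6 and 52.3 TPM of Myh2 and bulk myoblasts 68.0, 37 and 0.6.

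Myh7, the slow chain, was highest in MyoD alone. It was at 30.8, 35.1 and 25.2 TPM on day 2, 319, 575 and 258 on day 4, 416, 1137 and 677 on day 6, 380, 1031 and 274 on day 8, and 296, 797 and 128 on day 10. With F/R/C it was at 49.0, 52.3 and 34.2 on day 2, 221, 342 and 223 on day 4, 286, 378 and 295 on day 6, 201, 339 and 259 on day 8, and 200, 274 and 186 on day 10. Replicate 2 was the highest of the MyoD-alone libraries on each of the 5 days, and the arms overlapped in TPM on every day but day 6. Bulk iMPC held 38.0, 48.0 and 45.4 TPM of Myh7, below all F/R/C libraries from day 4 on, and sorted iMPC 9.58, 14.6 and 8.17. Bulk myoblasts held 330, 300 and 6.54 TPM and sorted myoblasts 37.3, 173 and 17.3. Part of the Myh7 and Myh7b TPM comes from short transcript models. A retained-intron model of 595 bases took 2.85% to 4.72% of Myh7 reads but 29.2% to 41.7% of its TPM in the means of days 4 to 10, and a model of 674 bases took 7.03% to 12.3% of Myh7b reads but 41.1% to 58.0% of its TPM.

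Myh7b and Myh6 were minor chains. Myh7b was at 14 to 17.1 TPM on day 2 of MyoD alone and at 2.03 to 7.95 with F/R/C, with no overlap, and then at 13.1 to 147 in MyoD alone and 14.8 to 98.1 with F/R/C from day 4 on. Replicate 1 with F/R/C was the lowest of its group on all 5 days. Myh6 had no read in MEF, was at 0.801 to 3.5 TPM on day 2 in either arm, and from day 4 on was at 0.847 to 15.7 TPM in MyoD alone and at 9.15 to 43.3 with F/R/C. Bulk iMPC held only 0.727, 1.18 and 0.833 TPM of Myh6. Markers of heart muscle cells were low throughout: the 7 of them (Nkx2-5, Gata4, Tbx5, Tnni3, Nppa, Myl7 and Ryr2) summed to 1.39 to 23.1 CPM in each of the 45 libraries, with the highest sum in MEF. On day 10 they summed to 2.87 to 5.20 CPM in MyoD alone and 5.74 to 9.04 CPM with F/R/C, the arm with more Myh6, and their part in the Myh6 result was not tested.

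All 8 chains rose between MEF and day 2 in both arms. By edgeR's quasi-likelihood test with Benjamini-Hochberg adjustment, 8 of 8 passed (adjusted p under 0.05 and a log2 fold change of at least 1) in MyoD alone, where 12.3% of all genes tested passed as higher and 10.1% as lower (22.4% in all), and 8 of 8 with F/R/C, where 11.5% passed as higher and 8.93% as lower (20.4% in all). In CPM, all 8 lay wholly above MEF in both arms, against 28.0% and 25.8% of all genes. Myh3 rose by 8.13 on the log2 scale (SE 1.33, adjusted p 1.47e-05) in MyoD alone and by 8.27 (SE 1.34, adjusted p 1.42e-05) with F/R/C. Myh1 rose by 3.75 (SE 1.00, adjusted p 0.00384) and by 8.82 (SE 1.21, adjusted p 1.05e-06). Against MEF without reads, Myh6 was at least 11.5-fold higher in MyoD alone and at least 13.0-fold higher with F/R/C, with MEF set to 3 reads per library (0.154 CPM). In MEF, replicate 1 held nearly all reads of Myh3 and Myh1, on which these log2 values rest. Without it, Myh1 had 3 reads in MEF, and its ratio was 214 in MyoD alone (95% counting interval 73.2 to 1042) and 7405 with F/R/C (2534 to 35908). Without that library and bulk myoblast replicate 3, all 8 still passed in both arms, and Myh3, then with 0 MEF reads, was at least 28004-fold higher in MyoD alone and at least 30954-fold higher with F/R/C (floor of 3 reads per library). These Myh3 bounds rest on leaving out the only MEF library that held Myh3 reads (1120).

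Between day 2 and day 10, 3 chains passed as higher in each arm, with Myh7 in both, and Myh3 passed in neither. In MyoD alone, 3 of 8 passed, all as higher, where 6.26% of all genes did (4.50% higher, 1.76% lower): Myh7 rose by 3.73 on the log2 scale (SE 0.87, adjusted p 0.00451), Myh2 by 3.37 (SE 0.79, adjusted p 0.00492) and Myh8 by 3.12 (SE 0.96, adjusted p 0.0329). With F/R/C, 3 of 8 passed, all as higher, where 16.0% of all genes did (9.85% higher, 6.18% lower): Myh6 rose by 4.15 (SE 1.11, adjusted p 0.00621), Myh7b by 3.32 (SE 0.91, adjusted p 0.00722) and Myh7 by 2.11 (SE 0.81, adjusted p 0.0499). Myh3 differed by 0.41 (SE 0.97, adjusted p 0.839) and by 0.03 (SE 0.97, adjusted p 0.985). In CPM, 4 members in MyoD alone and 6 with F/R/C lay wholly above their day 2 libraries, against 17.8% and 21.2% of all genes, and none lay wholly below, against 16.1% and 24.4%. Myh8 in MyoD alone lost its call in edgeR's test without any of the 3 day 2 libraries (adjusted p 0.0929, 0.0887 and 0.142 without replicates 1, 2 and 3) and without day 10 replicate 2 (0.128), and Myh7 with F/R/C without any of the 6 libraries (adjusted p 0.0529 to 0.122). Without MEF replicate 1 and bulk myoblast replicate 3 in the fit, Myh2 (1.89, adjusted p 0.00677) and Myh8 (2.36, adjusted p 0.00152) also passed with F/R/C, and Myh4 (1.78, adjusted p 0.0367) in MyoD alone.

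The comparison of F/R/C with MyoD alone on the same day asks what the small molecules change. Myh1 passed as higher on all 5 days. By the same edgeR test it was higher by 5.07 on the log2 scale on day 2 (SE 1.00, adjusted p 0.00135), 6.22 on day 4 (SE 1.06, adjusted p 6.59e-05), 5.59 on day 6 (SE 1.03, adjusted p 0.000178), 4.67 on day 8 (SE 0.98, adjusted p 0.000567) and 3.93 on day 10 (SE 0.95, adjusted p 0.00142). On day 4 that is 654 ± 195 TPM against 8.59 ± 1.18. Myh4 also passed on day 4 (2.69, SE 0.82, adjusted p 0.0157) and Myh6 on day 10 (3.09, SE 1.05, adjusted p 0.0188). So 1, 2, 1, 1 and 2 of the 8 members passed on days 2, 4, 6, 8 and 10, where 4.93%, 13.2%, 15.4%, 18.7% and 23.3% of all genes did. All these calls were higher, for which the shares of all genes were 2.13%, 6.58%, 8.23%, 9.20% and 9.91%, and no member passed as lower, where 2.80%, 6.66%, 7.14%, 9.46% and 13.4% of all genes did. In CPM, 4, 3, 2, 3 and 3 members lay wholly above MyoD alone on these days, against 18.0%, 22.9%, 23.1%, 21.8% and 22.0% of all genes. Myh7b on day 2 and Myh7 on day 6 lay wholly below, against 19.8% and 25.7% of all genes, and none did on days 4, 8 and 10, against 23.4%, 25% and 25.9%.

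**Figure D2:**
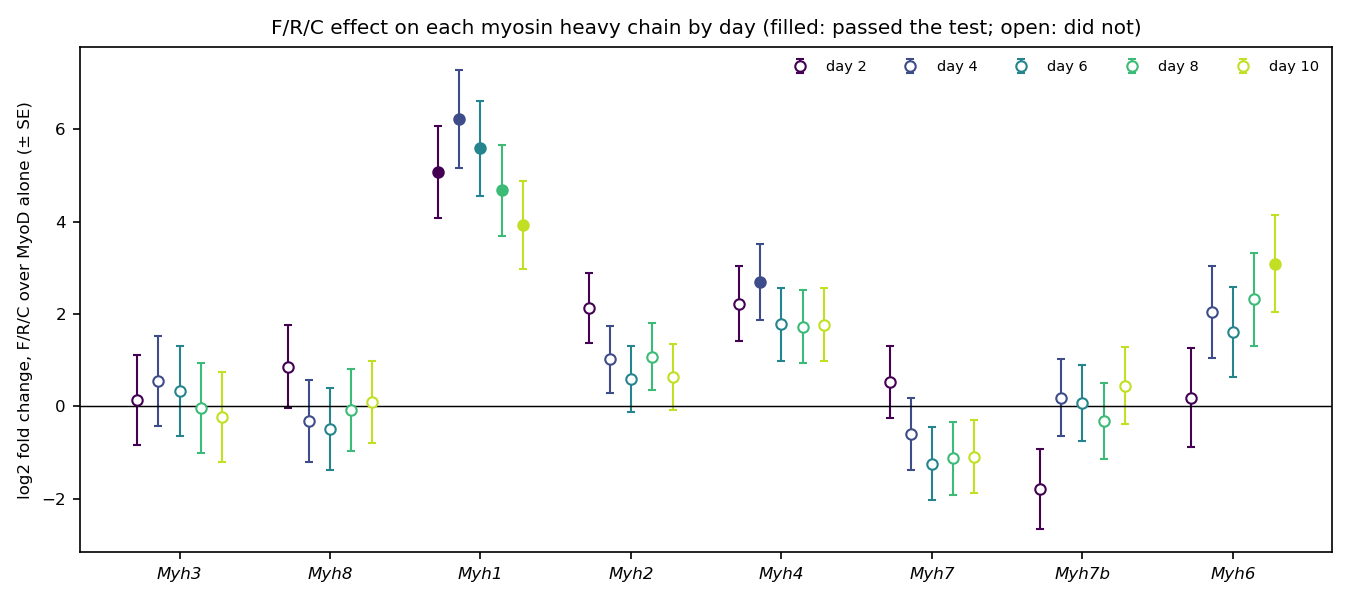
Log2 fold change of F/R/C over MyoD alone for each of the 8 genes on days 2, 4, 6, 8 and 10, as estimates with bars of 1 SE (3 libraries per group), filled where the gene passed the test. Myh1 lies between 3.93 and 6.22 and is filled on all 5 days, Myh4 is filled on day 4 and Myh6 on day 10, and the estimates of Myh7 are 0.53 on day 2 and between -1.24 and -0.60 on the later days, none of them filled.

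Averaged over the 5 days, 4 of 8 members passed as higher, where 11.6% of all genes did, and none as lower, where 10.5% did. Myh1 was higher by 5.10 (SE 0.45, adjusted p 2.67e-11), Myh4 by 2.03 (SE 0.36, adjusted p 1.04e-05), Myh6 by 1.85 (SE 0.45, adjusted p 0.000748) and Myh2 by 1.09 (SE 0.32, adjusted p 0.00428). The median log2 fold change of the 8 members was 0.62, beside -0.03 over all genes tested. The other 4 did not pass. Myh7 was at -0.70 (SE 0.35, interval of the difference -1.42 to 0.01, adjusted p 0.0807), Myh7b at -0.28 (-1.04 to 0.47), Myh3 at 0.15 (-0.74 to 1.03) and Myh8 at 0.01 (-0.80 to 0.82), all intervals at 95%. The averaged test counts libraries of different days as independent, although same-numbered ones deviated together between days 10 and 2 of MyoD alone. Its SE, p-values and intervals may therefore be too small. The change of the effect from day 2 to day 10, tested as an interaction, passed for 0 of 8 members, where 6.01% of all genes passed (2.24% higher, 3.77% lower). Its largest values were 2.90 for Myh6 (SE 1.47, adjusted p 0.208) and 2.25 for Myh7b (SE 1.19, adjusted p 0.229). No member had an unadjusted p under 0.05 (0 of 8), and by DESeq2 the count that passed was also 0. A member did pass in a fit of only the 4 groups compared (Myh2, -1.44, adjusted p 0.0358), with the replicate block (Myh6, 3.41, adjusted p 0.0499) and without day 10 replicate 2 of MyoD alone (1 of 8, higher).

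The call of Myh4 on day 4 was lost without day 4 replicate 2 of MyoD alone (edgeR adjusted p 0.0557) and without replicate 3 with F/R/C (adjusted p 0.0702), and that of Myh6 on day 10 without replicate 1 or replicate 3 of MyoD alone (adjusted p 0.0722 and 0.0709). Without MEF replicate 1 and bulk myoblast replicate 3 in the shared fit, the fold changes of Myh4 barely moved but Myh4 passed on all 5 days (2.24, 2.71, 1.81, 1.77 and 1.81, adjusted p 0.0113, 0.000962, 0.0172, 0.0162 and 0.0111), as did Myh2 on day 2 (2.15, adjusted p 0.00823). The counts were then 3, 2, 2, 2 and 3 of 8. Neither library is part of these comparisons, and both were picked for their values in these genes, so the added calls are no independent support. The differentiated muscle markers, which these chains accompany, did not separate the arms: 0 of 7 passed on any day, and their median averaged over the days was -0.04. Markers of other cell types did move with the arms. Averaged over the days, 4 of 4 proliferation markers were higher with F/R/C, with summed levels on day 10 of 315 to 702 CPM against 27.2 to 266 CPM, and 3 of 8 fibroblast markers were higher and 2 lower, with sums on day 10 of 939 to 4518 CPM against 2869 to 11044 CPM. Of 3 progenitor markers (Pax7, Myf5 and Myod1), 2 were higher on each of days 4, 6, 8 and 10, and 1 was lower on day 4. Averaged over the days, 0 were higher and 1 lower, with a median of 5.43. That average includes day 2 with F/R/C, where Pax7 and Myf5 had no reads. Their sums on day 10 overlapped, at 684 to 1064 CPM with F/R/C against 622 to 2024 CPM. Myod1 is also the gene that Dox induces in both arms, so these sums do not measure progenitors alone. Pax7 itself was at 16.0 to 29.9 TPM on day 10 with F/R/C and at or under 0.0539 TPM in MyoD alone. The part of these cells in the myosin differences was not tested.

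The shares of the isoform classes, as percent of the summed TPM of the 8 genes, were mostly embryonic on day 2 and more perinatal and slow on later days. In MyoD alone, the embryonic share (Myh3) was 86.7%, 88.6% and 91.7% in the 3 libraries of day 2 and 53.4% ± 4.25 on day 4 (SD, n = 3). The perinatal share (Myh8) was 6.86% ± 1.90 on day 2 and 36.1% ± 5.16 on day 4. The adult fast share (Myh1, Myh2 and Myh4) differed between the arms in every library. It was between 0.585% and 2.26% in all 15 libraries of MyoD alone and between 8.52% and 16.9% in all 15 with F/R/C. Averaged over the 5 days it was 1.62% against 11.7%, a difference of 10.1 percentage points beside a pooled SD of 1.95 points. Shares are compositions, so a higher share of one class lowers the others, and they are given here as values with no test.

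The slow and cardiac share (Myh7, Myh7b and Myh6) went the other way. In MyoD alone it was 3.28% on day 2, 8.66% on day 4, 13.5% on day 6, 16.0% on day 8 and 12.4% on day 10, and with F/R/C it was 2.74%, 5.02%, 6.56%, 8.67% and 9.10%. The libraries with F/R/C lay wholly below on 3 of the 5 days, and the average difference was -4.35 points (pooled SD 1.91). With transcripts over 5000 bases only, which leaves out the short models above, the day 8 share was 5.49% with F/R/C and 9.79% without. The perinatal share differed by -4.79 points on average (pooled SD 4.07). It was 21.7% ± 3.19 with F/R/C against 36.1% ± 5.16 on day 4 and was close to it on day 10 (29.9% ± 6.08 against 29.2% ± 6.12). The embryonic share differed by only -0.98 points on average (pooled SD 3.24), being lower with F/R/C on day 2 (77.0% ± 3.24 against 89.0% ± 2.52) and higher on day 6 (57.5% ± 0.0941 against 48.6% ± 4.27). These averages depended on the unit: from estimated counts divided by 1 median transcript length per gene, the embryonic difference was 4.19 points and the perinatal 0.0356, and without replicate 1 of every group the embryonic difference was 0.000733, while the adult fast (7.09) and slow and cardiac (-11.3) differences kept their sign.

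**Figure D3:**
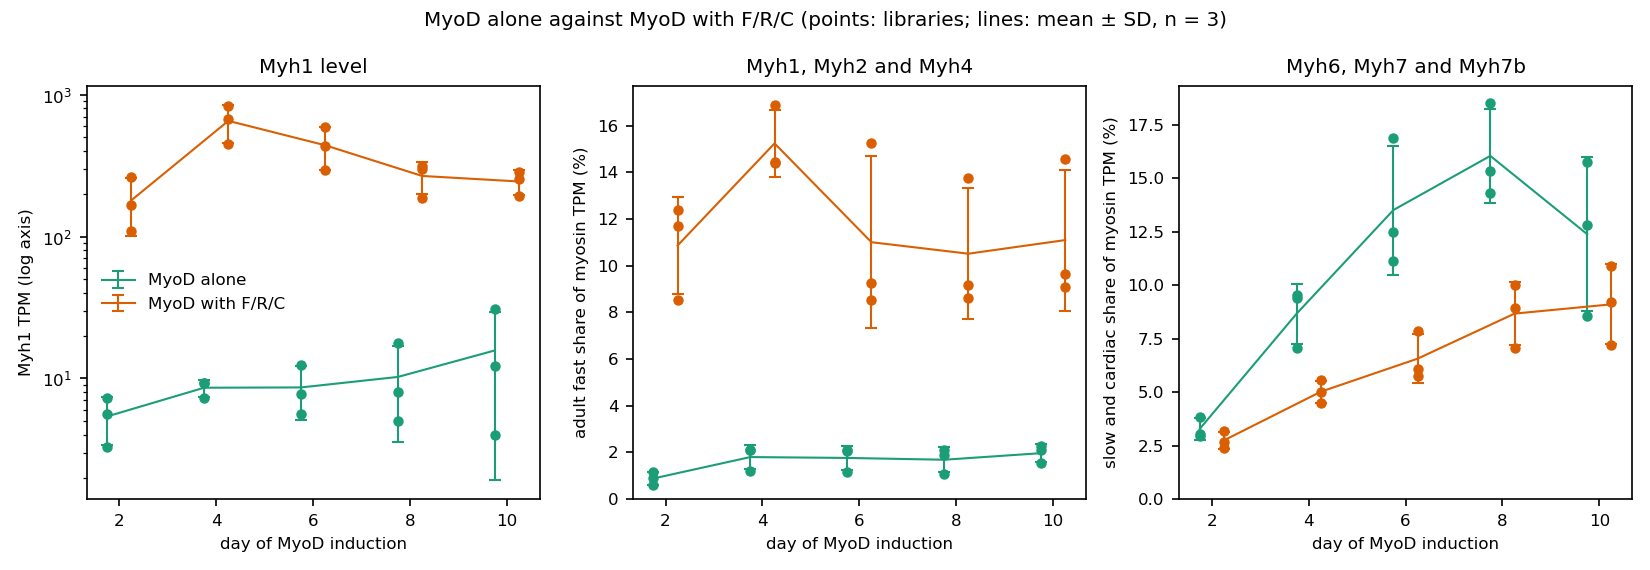
Myh1 level (TPM, log axis), adult fast share and slow and cardiac share (percent of the TPM of 8 genes) by day of MyoD induction, with points for libraries and lines for the mean ± SD of 3 libraries per arm. The adult fast share lies at or under 2.26% in MyoD alone and at or above 8.52% with F/R/C, and the slow and cardiac share has higher means in MyoD alone on all 5 days.

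The iMPC and myoblast cultures differed most in the perinatal share. In bulk iMPC the embryonic share was 48.0% ± 2.66, the perinatal 36.0% ± 4.23, the adult fast 15% ± 1.68 and the slow and cardiac 1.07% ± 0.194. In sorted iMPC they were 47.9% ± 7.98, 30.9% ± 5.96, 13.5% ± 3.91 and 7.72% ± 0.609. Bulk myoblasts were at 63.4% ± 14.7, 5.24% ± 4.72, 25.7% ± 9.16 and 5.66% ± 1.27, and sorted myoblasts at 72.5% ± 17.4, 2.10%, 15.1% ± 7.19 and 10.3% ± 9.58, where replicate 2 alone reached 21.3% slow. Bulk myoblast replicates 1 and 2, without the library that stood apart, were at 65.9% and 47.7% embryonic, 2.73% and 10.7% perinatal, and 26.2% and 34.6% adult fast. The perinatal share was therefore at least 26.6% in every iMPC library and at most 10.7% in every myoblast library. MEF shares are not interpretable, since replicates 2 and 3 held almost no myosin reads.

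**Figure D4:**
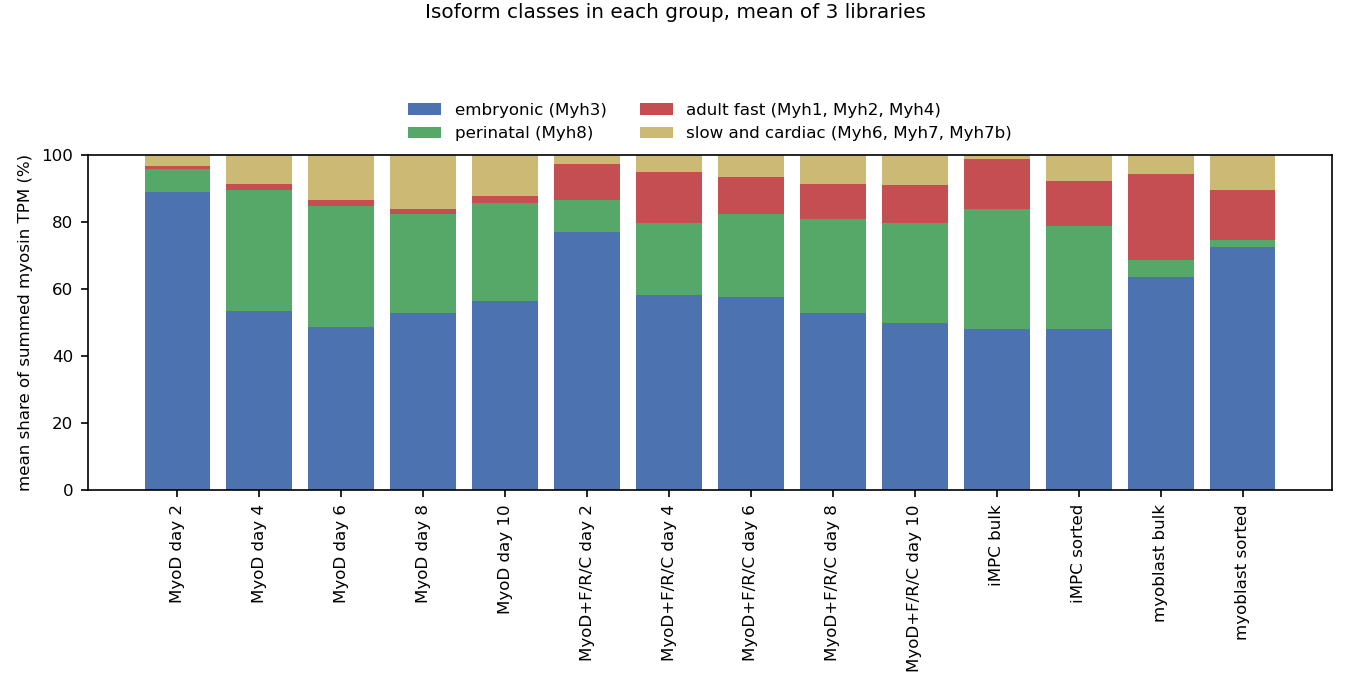
Mean share of each isoform class (percent of the summed TPM of the 8 genes, mean of 3 libraries) in 14 groups, MEF left out. The adult fast part is under 2% in each MyoD-alone bar and 10.5% or more in each F/R/C bar, and the perinatal part is 36.0% in bulk iMPC and 5.24% in bulk myoblasts.

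Bulk iMPC against day 10 with F/R/C compares the established clones with the culture at the end of the time course. Myh6 was lower by 4.57 on the log2 scale (SE 1.12, adjusted p 0.00412, edgeR), the only member of 8 to pass where 9.57% of all genes did. Myh7 was at -1.91 (SE 0.81, adjusted p 0.0889) and Myh1 at 1.21 (SE 0.85, adjusted p 0.333). In CPM, 2 members lay wholly above and 2 wholly below day 10, against 18.3% and 18.4% of all genes. Without MEF replicate 1 and bulk myoblast replicate 3 in the fit, Myh7 (-1.93, adjusted p 0.0233) and Myh4 (1.66, adjusted p 0.0325) also passed. Of 6 heart muscle markers tested, 2 were lower in iMPC, with sums over the list of 1.72 to 2.22 CPM against 5.74 to 9.04, and their part in the Myh6 result was not tested.

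Bulk iMPC against bulk myoblasts sets the clones beside cells from muscle. Myh8 was higher by 3.20 (SE 0.97, adjusted p 0.0108, edgeR), 1 of 8 where 19.6% of all genes passed. Myh7 was at -1.96 (SE 0.81, adjusted p 0.0606) and Myh4 at 1.97 (SE 0.80, adjusted p 0.0547), and Myh3 at 0.31 and Myh1 at -0.82 did not pass. In CPM, Myh8 was the 1 member wholly above, against 19.7% of all genes, and none lay wholly below, against 15.5%. Without bulk myoblast replicate 3 and MEF replicate 1, Myh8 was at 2.61 (adjusted p 0.00303) and Myh7 passed as lower (-2.52, adjusted p 0.00624). Leaving out the myoblast library with the least myosin by itself lowers iMPC against myoblasts, so that Myh7 call is no independent support. In a fit of these 2 groups alone, Myh8 did not pass (3.16, adjusted p 0.178). Markers of other cell types moved in the same comparison: 8 of 8 fibroblast markers were higher in iMPC, with sums of 1854 to 3330 CPM against 295 to 428, and 3 of 3 progenitor markers were lower, with sums of 154 to 255 CPM against 794 to 1534. Their part in the result was not tested.

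Among the Pax7-positive sorted cells, 3 of 8 chains were lower in iMPC than in myoblasts, where 30% of all genes passed in either direction (12.4% higher, 17.6% lower). Myh7 was lower by 2.59 (SE 0.83, adjusted p 0.0105, edgeR), Myh1 by 2.45 (SE 0.89, adjusted p 0.0227) and Myh3 by 2.47 (SE 1.03, adjusted p 0.0461). Myh8 (1.92, SE 0.92, adjusted p 0.085) and Myh4 (1.88, SE 0.82, adjusted p 0.058) were higher in estimate and did not pass. In CPM, 1 member lay wholly above and 3 wholly below, against 22.9% and 24.5% of all genes. Differentiated muscle markers moved with them: 6 of 7 passed as lower, and their sums were 463 to 915 CPM in sorted iMPC and 2267 to 10632 CPM in sorted myoblasts. Of other markers, 2 of 4 for proliferation were higher in iMPC (sums of 1374 to 1660 CPM against 367 to 689), as were 3 of 8 for fibroblasts (390 to 1219 against 172 to 751), while 3 of 6 for smooth muscle were higher and 1 lower (171 to 796 against 841 to 1605) and 2 of 3 for progenitors were lower (434 to 628 against 1219 to 1384). The part of these cells in the result was not tested. Single libraries decided these calls: Myh3 lost its call without any of the 6 libraries (adjusted p 0.062 to 0.144), Myh7 without sorted myoblast replicate 2 (-0.93, adjusted p 0.358), and Myh1 without that library (adjusted p 0.141), sorted iMPC replicate 1 (0.0895) or replicate 3 (0.0944). Without MEF replicate 1 and bulk myoblast replicate 3 in the fit, Myh8 (1.97, adjusted p 0.00268) and Myh4 (1.92, adjusted p 0.00814) passed as higher.

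Nearly all chains were lower in Pax7-nGFP sorted than in bulk iMPC. They were 7 of 8, where 20.5% of all genes passed as lower: Myh4 by 5.42, Myh8 by 5.22, Myh3 by 4.98, Myh1 by 4.94, Myh2 by 4.85 and Myh7b by 3.94 on the log2 scale, and Myh7 also passed, with edgeR adjusted p from 2e-05 (Myh4) to 0.0268 (Myh7). Myh6 was at -0.81 (adjusted p 0.564). Myh7 lost its call without sorted replicate 1 or 3 (adjusted p 0.0831 and 0.0833) or bulk replicate 2 or 3 (0.0569 and 0.0507). In CPM, 7 lay wholly below, against 30.3% of all genes, and differentiated muscle markers passed as lower for 6 of 7 (8441 to 11523 CPM in bulk, 463 to 915 in sorted cells). Fibroblast markers passed as lower for 6 of 8 (1854 to 3330 CPM in bulk, 390 to 1219 in sorted cells). The part of either in the result was not tested. All sorted libraries were also counted with another effective transcript length than the bulk ones, which cannot be told apart from sorting here.

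In myoblasts the sorted cells were lower than bulk for 5 of 8 where 4.03% of all genes were: Myh4 by 5.32 (SE 0.93, adjusted p 0.000431, edgeR), Myh2 by 4.62, Myh8 by 3.94, Myh7b by 3.36 and Myh1 by 3.30. No member was wholly below in CPM, against 7.53% of all genes, and bulk replicate 3 lay among or below the sorted libraries. Without it and MEF replicate 1, 7 of 8 passed, Myh3 (-2.72, adjusted p 8.58e-05) and Myh7 (-2.07, adjusted p 0.0401) among them. Bulk replicate 3 was left out for its low level of these chains, which by itself lowers the sorted cells against bulk. The calls gained that way are therefore no independent support. A fit of sorted and bulk myoblasts alone gave no call for any of 8 (adjusted p 0.431 to 0.717), and 0 over all genes. Single libraries also mattered: Myh8 lost its call without bulk replicate 2 (adjusted p 0.0596), Myh7b without it (0.0977) or without sorted replicate 2 (0.0524) or 3 (0.054), and Myh1 without bulk replicate 1 (0.0698) or sorted replicate 1 (0.0558) or 3 (0.0628). The 7 muscle markers did not pass here (0 of 7). As in iMPC, the effective transcript length used in counting also differed between sorted and bulk libraries.

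The proteins that build the thick filament with these chains were described from a list of 22 light chains, binding proteins, M-band proteins and assembly factors. Between MEF and day 2, 18 of 22 rose in MyoD alone and 17 of 22 with F/R/C, where 12.3% and 11.5% of all genes did, with medians of 8.01 and 7.12 on the log2 scale beside 0 over all genes. For F/R/C against MyoD alone, averaged over the days, 2 were higher and 4 lower, where 11.6% and 10.5% of all genes were, with a median of -0.29 beside -0.03 over all genes. Mybpc2, the fast form of myosin-binding protein C, was higher by 3.41 (SE 0.63, adjusted p 2.37e-05, edgeR) and Mylk2, the kinase of skeletal light chains, by 1.37 (SE 0.32, adjusted p 0.000423). Myl3 (-2.80, SE 0.39, adjusted p 1.86e-07) and Myl2 (-1.73, SE 0.68, adjusted p 0.0281), the light chains of slow and cardiac muscle, and Myl6b (-1.38, SE 0.28, adjusted p 6.09e-05) were lower. In sorted iMPC, 15 of 22 were lower than in sorted myoblasts, where 17.6% of all genes were, and 19 of 22 lower than in bulk iMPC, where 20.5% were.

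Regulators known for roles in fibre type were a second list, of 19 genes. For F/R/C, averaged over the days, 6 were higher and 2 lower, where 11.6% and 10.5% of all genes were, with a median of 0.81 beside -0.03 over all genes. Maf was higher by 1.53 (SE 0.24, adjusted p 1.67e-06, edgeR), as was Ppargc1a, a coactivator of mitochondrial and oxidative genes, by 1.28 (SE 0.27, adjusted p 0.000148). Nfatc1, the calcium-responsive factor of slow fibres, was lower by 1.33 (SE 0.13, adjusted p 3.91e-10). Between bulk iMPC and bulk myoblasts, Prdm1 was higher by 8.00 (SE 0.93, adjusted p 2.26e-07), with 6 of 19 higher and 3 lower, where 10.9% and 8.70% of all genes were.

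Other RNAs of the chromosome 11 cluster were also higher with F/R/C. 2310065F04Rik, a long noncoding RNA (chr11:67112461-67120080, reverse strand, between Myh3 and Myh2), had 6, 4 and 7 reads on day 4 of MyoD alone and 84, 93 and 93 with F/R/C. It passed as higher on all 5 days and averaged 2.96 over them (SE 0.39, adjusted p 1.08e-07, edgeR). 9430073C21Rik, antisense to the end of Myh2, was higher by 2.42 (SE 0.39, adjusted p 2.91e-06). Myhas, antisense to Myh1, had 0 or 1 read in each library of MyoD alone, 0 in all of days 2 and 10, and at most 14.5 reads with F/R/C, so no fold is given. Both overlap a myosin gene on the other strand, and since the strand setting of the counting is not given, their reads and those of the myosin gene cannot be told apart there. Myh13, the extraocular chain at the far end of the cluster, was higher by 3.48 (SE 0.42, adjusted p 2.09e-08). It had at most 68.4 reads in any library, and its counts were not whole. On day 4 Myh13 had 3.28, 4.16 and 4.15 reads in MyoD alone and 40.0, 68.4 and 28.5 with F/R/C. Myh1 had 51532, 58329 and 33293 reads in the same F/R/C libraries. Stretches that Myh13 shares with other chains were not searched. The part of divided reads in its rise was not tested.

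**Figure D5:**
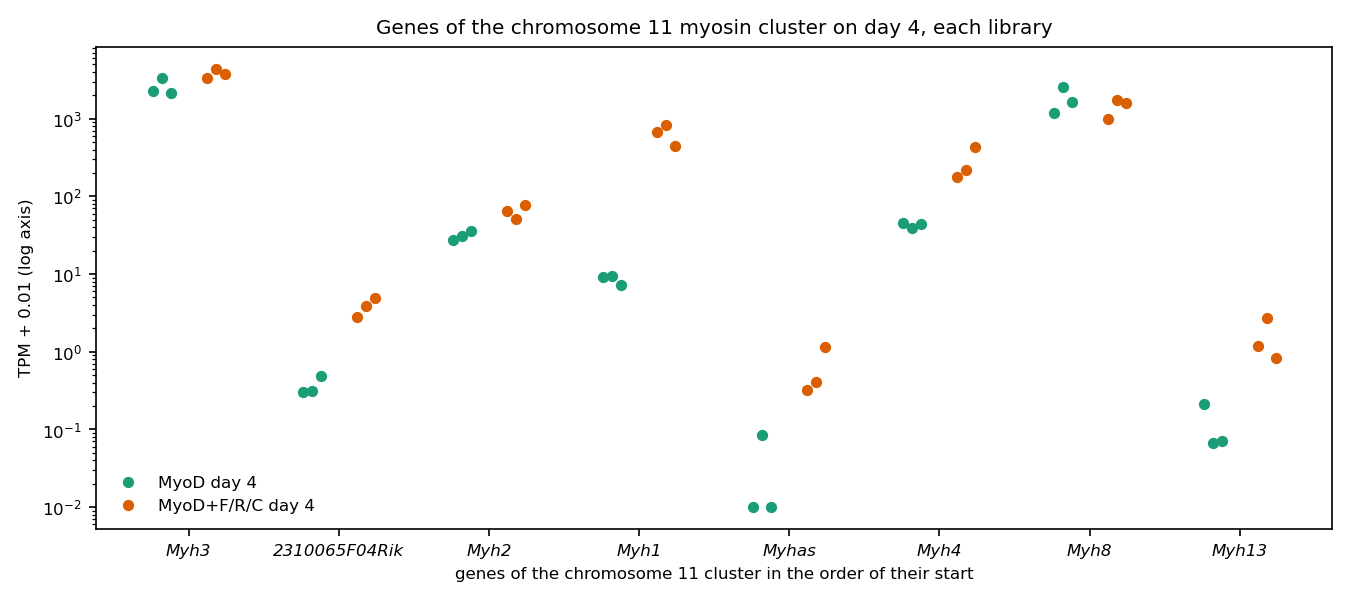
TPM plus 0.01 (log axis) of the genes of the chromosome 11 cluster on day 4, in the order of their start, with 1 point per library for MyoD alone and for F/R/C (3 each). Myh3 and Myh8 overlap between the arms, and 2310065F04Rik, Myh2, Myh1, Myhas, Myh4 and Myh13 have all 3 F/R/C libraries above all 3 libraries of MyoD alone.

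The other myosin heavy chains of the genome, which serve other tissues, were given beside the 8. Myh9, a nonmuscle chain, was lower with F/R/C by 1.43 (SE 0.16, adjusted p 3.29e-09, edgeR), while Myh14, also nonmuscle, was higher by 2.51 (SE 0.40, adjusted p 2.4e-06) and Myh11, of smooth muscle, by 1.69 (SE 0.41, adjusted p 0.000636). Of the 6 smooth muscle markers, Myh11 was the only one higher and 2 were lower (median -0.87), with sums on day 10 of 1198 to 1917 CPM with F/R/C against 2961 to 7458 CPM. Myh10, another nonmuscle chain, did not pass, and Myh15 was below the filter.

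Genes most like each member were taken by Pearson r of group means of log2 CPM over the 15 groups, which share depth and the same cultures, and are given with no p. For Myh3 they were Mylpf, the fast regulatory light chain (0.995), Ttn, the giant filament protein titin (0.994), and Hfe2 (0.992). For Myh8 they were Mybpc1 (0.983), Myoz2 (0.978) and Tnnc2, fast troponin C (0.977). For Myh7 they included Hspb2 (0.981) and Cacna1s, the calcium channel of the T-tubule (0.971), and for Myh7b Foxj3 (0.975), F2 (0.973) and Rxrg (0.970). For Myh2 they were Cd36 (0.975), Abra (0.971) and Mybpc1 (0.969), and for Myh4 Usp28 (0.960), Tal2 (0.959) and C130080G10Rik (0.958). Myh1 had lower values, with Tmem30b (0.952), Tefm (0.939) and Sntb1 (0.938), and Myh6 had Rogdi (0.951), Anapc7 (0.944) and Krt33b (0.936). Among the members, Myh2 was most like Myh4 (0.977) and Myh8 (0.973), while Myh1 reached 0.469 to 0.742 with the other 7.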

How the data were processed

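Poly(A) RNA of 45 libraries (15 groups of 3) was sequenced as single-end reads after a TruSeq Stranded mRNA preparation, per the labels' protocols. The deposited tables give estimated counts and TPM for each transcript in the layout of kallisto. kallisto 0.44, Trimmomatic 0.36 and the build GRCm38.p6 are named in the submitters' processing notes, and the transcript release and strand setting are not given in the sources used here. The deposited expected counts, which need not be whole because reads that fit several transcripts are divided, and the deposited TPM were summed per gene with the GENCODE M21 annotation (GRCm38), which matched 121104 of 121843 transcripts and gave 35675 genes. Library totals (15.6 to 36.3, median 22.1, in units of 1e6 reads) set the counting error, which is all that floors and the counting intervals of ratios to MEF cover. The intervals of the averaged F/R/C differences come from the SE of edgeR's test and also cover the spread between libraries. They take the libraries of different days as independent. TPM already divides by transcript length, and it was used for levels and shares.

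Summed counts were rounded and tested with edgeR 4.0.16 (quasi-likelihood, TMM scaling, filterByExpr, 1 model of 15 groups with 30 residual degrees of freedom) over 17325 genes. A gene passed the test at a Benjamini-Hochberg adjusted p under 0.05 over all genes tested and a log2 fold change of at least 1 in size. Isoform shares are values with no test. All 8 members are named in every group, and the 3 genes most like each were taken by Pearson r of group means of log2 CPM (prior count 2). A few genes that these rules pick are not reported here. The members and lists were chosen with earlier results of these data known. Alternatives were DESeq2 1.42.0, other scaling factors, no filter, no minimum fold change, a replicate block, smaller fits and leaving out libraries. On data simulated for the day 10 comparison with 17140 genes, the test recovered 79.5% of 200 genes changed 4-fold, with 8 false calls. Replicate numbers come from the sample titles. Same-numbered libraries deviated together in the comparisons of both arms on days 2, 4 and 6 (every correlation of deviations between 0.2233 and 0.3752) and between days 10 and 2 of MyoD alone (0.2013 to 0.4158), and the numbers were taken to pair these libraries. Nothing in the labels says that same-group libraries came from separate cultures, so p-values measure the spread between these libraries, which may be technical. MAFFT 7.526 aligned coding sequences, and promoter bases come from RefSeq (GRCm38.p6).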

Additional observations from a re-analysis of the deposited data

Results flagged for a closer look

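Myh7, the slow chain, lay on opposite sides of MyoD alone on days 2 and 6 of F/R/C. On day 2 every F/R/C library was above every MyoD-alone library (102, 102 and 87.4 CPM against 65.5, 78.4 and 58.1), a difference of means of 29.9 CPM, although in TPM the arms overlapped. On day 6 every F/R/C library was below (603, 883 and 714 CPM against 983, 2718 and 1491), a difference of means of -997 CPM. Neither day passed edgeR's test (adjusted p 0.75 and 0.253), and the difference between these days was not tested.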

How the results depend on the processing

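The rise of all 8 chains from MEF to day 2, the 4 members higher with F/R/C averaged over the days, and Myh1 higher with F/R/C on each day were called under every alternative run. Counts of members called moved as follows. In fits restricted to the libraries of each comparison they were 4 on day 2, 3 on day 6 and 3 on day 8 of F/R/C, 1 for the change of the F/R/C effect from day 2 to day 10, 5 for days 10 and 2 with F/R/C, 3 for bulk iMPC against day 10, 0 for bulk iMPC against bulk myoblasts and 0 for sorted against bulk myoblasts. Without MEF replicate 1 and bulk myoblast replicate 3, an alternative chosen after seeing the data, they were 3, 2 and 2 on days 2, 6 and 8, 5 for days 10 and 2 with F/R/C, 3 for bulk iMPC against day 10, 2 for bulk iMPC against bulk myoblasts and 5 for the sorted cells. With DESeq2 they were 2 on day 2, 2 on day 8, 5 for days 10 and 2 with F/R/C and 3 for bulk iMPC against bulk myoblasts. The causes were not tested.

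Leaving out each replicate in turn gave 1 to 1, 1 to 2, 1 to 1, 1 to 2 and 1 to 3 members on days 2, 4, 6, 8 and 10, 4 to 4 on average, 0 to 1 for the change of the effect, 8 to 8 for MEF to day 2 in both arms, 2 to 3 and 2 to 2 for day 10 against day 2, 1 to 1 and 1 to 2 for bulk iMPC against day 10 and against bulk myoblasts, 0 to 3 for the sorted cells, 6 to 7 for sorted against bulk iMPC and 3 to 5 for sorted against bulk myoblasts. The direction of a member reversed for Myh6 on day 2 (-0.16 without F/R/C replicate 2, range over replicates left out -0.16 to 0.52) and Myh7 on day 10 (0.064 without MyoD-alone replicate 2, range -1.40 to 0.064). The share differences ranged from -1.81 to 0.000733 points (embryonic, reversed without replicate 1), -5.17 to -4.50 (perinatal), 8.85 to 11.2 (adult fast) and -4.87 to -3.84 (slow and cardiac). With estimated counts per median transcript length they were 4.19, 0.0356, 7.09 and -11.3.

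With the replicate block, where pairing held, no call of a member changed. Where the libraries share only a number, the block gave 2 members on day 8 (Myh6 2.67, adjusted p 0.00969 by edgeR), 1 for the change of the effect (Myh6 3.41, adjusted p 0.0499), 4 for days 10 and 2 with F/R/C (Myh8 2.48, adjusted p 0.0362) and 2 for bulk iMPC against day 10 (Myh7 -1.84, adjusted p 0.0471). As a hint from the data only, not every library there deviated most like its own number.

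Over all genes, dropping the minimum fold change gave 1401, 4023, 4640, 5756 and 7108 calls on days 2 to 10 of F/R/C in place of 854, 2294, 2663, 3233 and 4037, 10654 in place of 3823 on average, 6317 and 5899 from MEF to day 2 in place of 3889 and 3531, and 1818 and 4771 for day 10 against day 2 in place of 1084 and 2776. In the cell comparisons it gave 3549, 5693, 8233, 8433 and 2059 in place of 1658, 3396, 5199, 5255 and 1080. Fits of only the groups compared gave 1420 on day 2, 1265 for bulk iMPC against bulk myoblasts, 3424 for the sorted cells and 0 for sorted against bulk myoblasts. Without the filter on low counts the change of the effect gave 649 in place of 1041. Leaving out single libraries gave as few as 423 on day 2, 300 for the change of the effect, 605 for MyoD alone and 513 for sorted against bulk myoblasts. With 3 libraries a group, wide intervals limit what a missed call says, and Myh6 and the MEF levels rest on few reads.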

Other observations

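Myh4 reads were divided between 2 transcript models of 6016 and 5912 bases, which differ by 104 exon bases, 63 of them before the first codon. The longer model held 49.0% ± 1.05 of Myh4 reads on day 4 with F/R/C (SD, n = 3) and 14% in MyoD alone, where the 3 libraries ranged from 1.70% to 29.4%. On day 10 it held 33.1% ± 2.98 with F/R/C and 5.75% ± 3.65 without, and in bulk iMPC 49.8% ± 7.76. These shares come from estimated counts and were not tested.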
